A study of Mus musculus with 6 samples.

Results

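The comparison described here sets one added transcription factor directly against another. It takes the array of melan-a cells labelled BRAF activated + TWIST1 against the array labelled BRAF activated + ZEB1, 2 of the 6 arrays of the series, and leaves out the array of activated BRAF alone, so that no shared control enters the ratio. Melan-a is an immortal line of pigment cells from the skin of C57BL/6 mouse embryos. Every culture of the series carried delta-BRAF-ER, in which tamoxifen turns on the kinase BRAF. There was 1 array for cells without activation (BRAF-off), 1 for activation alone (BRAF-on) and 1 each for activation plus TWIST1, ZEB1, ZEB2 or SNAIL2. With 1 array a side the comparison has no replicate and no test: every fold is between 2 arrays, and their number limits the precision. "With TWIST1" and "with ZEB1" stand below for the arrays so labelled, "higher" or "lower" without a partner means with TWIST1 relative to ZEB1, and a log2 ratio is the TWIST1 signal over the ZEB1 signal. Levels on the other 4 arrays are given as context. The labels give neither the species of the introduced factors, the promoter that drove them, the time after tamoxifen, nor whether a line was 1 clone or a pool.

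TWIST1 and ZEB1 are transcription factors of the embryo that bind E-box elements in DNA. TWIST1 is a basic helix-loop-helix protein active in the cranial neural crest and in mesenchyme, and ZEB1 is a zinc finger and homeodomain protein known for repressing epithelial genes. In melanocytes, cells that derive from the neural crest, the pigment programme is driven by the factor MITF, which activates the genes for melanin enzymes and melanosome proteins. In melanoma, TWIST1 and ZEB1 are known for going with low MITF and a mesenchymal state.

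The endogenous genes of the introduced factors did not follow the labels. The Twist1 probe set was at 278 with TWIST1 and 404 with ZEB1, and the Zeb1 probe set used was at 110.2 with TWIST1 and 109 with ZEB1. Snai2, a zinc finger factor of the same class, was at 4946 with TWIST1 and 3547 with ZEB1 on its brighter probe set and at 1735 and 677 on the other. Zeb2 was at 901 with TWIST1 and 540.2 with ZEB1, and 1 of its other probe sets was 2.09-fold higher with TWIST1. Probe sets of this array type lie near the 3' end of the mouse transcript and may miss an introduced copy, whose sequence is not given here, so they check neither label. Braf itself was 2.17-fold higher with TWIST1, at 949 against 437. With the median of all its probe sets the log2 ratio is 0.30: of the 8 others, 1 was also past 2-fold and 1 that was above the floor went the other way. The floor was 63.7 signal units, the median of all deposited values, and a signal below it was raised to it. It was reached by 10779 genes with TWIST1 and 11269 with ZEB1. The median signal was 58.7 with TWIST1 and 68.9 with ZEB1, so the floor lay between these medians. By both measures the ZEB1 array was the highest of the series. The part of this difference in the folds below was not tested. The ratio of the 3' to the 5' control probe set, a sign of RNA quality, was 1.36 and 1.43 for Actb and 0.793 and 0.792 for Gapdh. Bacterial transcripts added as poly-A controls had a median signal of 143 with TWIST1 and 253 with ZEB1; their part in the results was not tested.

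Of 11515 genes with at least 1 of the 2 arrays at the floor, 381 (3.31%) were at least 2-fold higher with TWIST1 and 508 (4.41%) were at least 2-fold lower, together 7.72%. These shares are the background against which each gene group below is read, together with the median log2 ratio of all genes compared, -0.08, and the 42.8% of them above 0. With every ratio centred on that median, 480 genes were higher and 414 lower, so the balance of directions depends on the scaling. Where 1 array lay under the floor the fold is a lower bound, which concerned 38 of the higher and 96 of the lower genes. Among the 15 pairs that 6 arrays allow, this pair ranked 9th by the number of genes apart. The range ran from 149 genes for BRAF-off against the array labelled ZEB2 to 2176 for SNAIL2 against TWIST1. A gene's value came from its brightest probe set. Of 181 higher genes with further probe sets, 166 had all of them on the same side of 0 and 95 had another past 2-fold the same way. For the lower genes these numbers were 188 and 99 of 192. Where a named gene came within 2-fold by the median over its probe sets, or by centring, that value is given as "over all probe sets" or "after centring". Of 145 genes followed, 136 gave a value by that median. Those without one, among them Disp2 and Eya4, carry no such note.

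**Figure D1:**
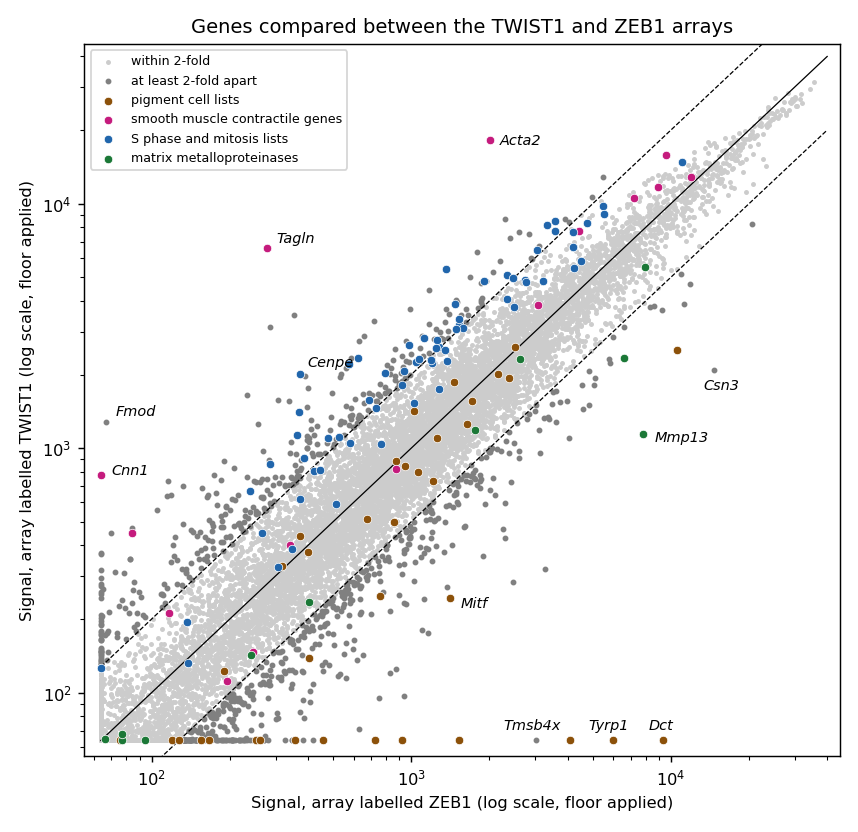
Signal of every gene compared on the array labelled ZEB1 (x axis) and on the array labelled TWIST1 (y axis), both in deposited signal units on a log scale with values under the floor raised to it; the solid line marks equal signal and the dashed lines 2-fold. Many pigment cell genes lie along the lower edge, under the floor with TWIST1; Tagln, Fmod, Cnn1 and Acta2 lie far above the diagonal, and S phase and mitosis genes form a band above it.

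Where each gene sat among all 6 arrays shows which of the 2 stood apart for some of the genes only. Of the 381 genes higher with TWIST1, 57 were on the TWIST1 array at least 2-fold above each of the other 4 arrays, and 100 were on the ZEB1 array at least 2-fold below each of them. Of the 508 lower genes, 152 were at least 2-fold above the other 4 arrays on the ZEB1 array and 79 were at least 2-fold below them on the TWIST1 array. For 226 of the higher and 277 of the lower genes neither was the case. By rank alone, 198 of the higher genes were highest of the 6 arrays with TWIST1 and 252 lowest with ZEB1. Among the lower genes 353 were highest with ZEB1 and 248 lowest with TWIST1. The shares over all genes compared are not given, so such counts for the lists below are description only.

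**Figure D2:**
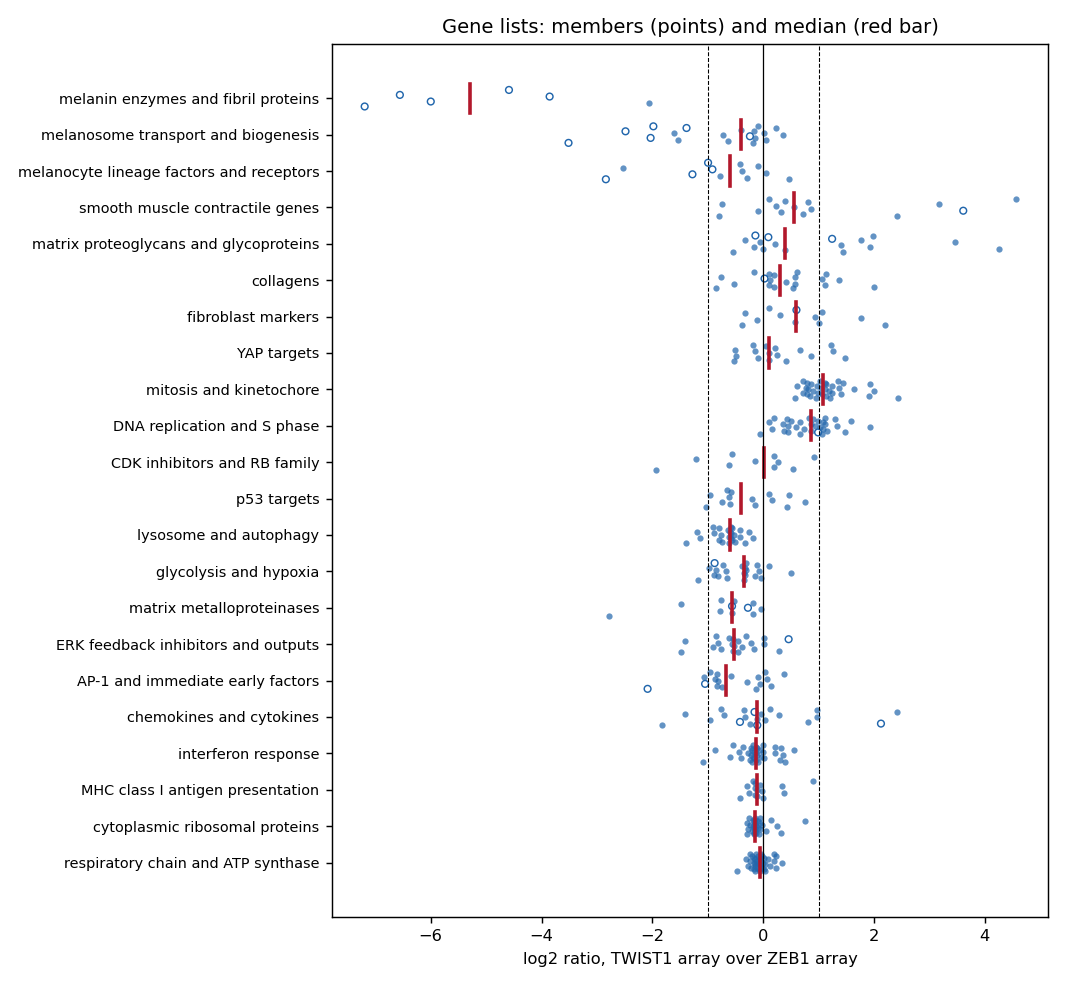
log2 ratio of the TWIST1 array over the ZEB1 array for the compared members of 22 gene lists; filled points are genes measured on both arrays, open points are bounds with 1 array under the floor, red bars are medians and dashed lines mark 2-fold. Mitosis and S phase genes lie above 0 as a body, melanin genes and lysosome genes below it, and interferon, antigen presentation, ribosomal and respiratory genes around it.

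Pigment cell genes held the largest ratios on the lower side. All 6 melanin enzyme and fibril protein genes were at least 2-fold lower, with a median log2 ratio of -5.29, and on the TWIST1 array 5 of them lay under the floor. Dct, the dopachrome tautomerase of melanin synthesis, was at 4.54 with TWIST1 and 9319 with ZEB1, against 23974 in BRAF-off, 20659.7 in BRAF-on, 29621 with ZEB2 and 33845 with SNAIL2. Tyrp1, a second melanin enzyme, was at 13.1 with TWIST1 and 5999.7 with ZEB1, against 22671 in BRAF-off, 17439 in BRAF-on, 25678 with ZEB2 and 29340.3 with SNAIL2. Tyr, the tyrosinase that starts melanin synthesis, was at 28.7 with TWIST1 and 922 with ZEB1, against 5366 in BRAF-off, 2583 in BRAF-on, 7467 with ZEB2 and 9714 with SNAIL2. On the ZEB1 array these enzymes were thus below all 4 other arrays as well, yet still far above the floor, and only on the TWIST1 array of the 6 were they under it. The bounds were at least 146-fold for Dct, at least 94.2-fold for Tyrp1 and at least 14.5-fold for Tyr, or -0.77 in log2 over all probe sets. All 3 Tyrp1 probe sets were past 2-fold, with log2 bounds of -6.56, -5.75 and -5.87, whereas the dimmer probe sets of Tyr, at 109 and 90.2 with ZEB1, allowed bounds under 2-fold only. Pmel, the fibril protein on which melanin is laid down, was at 57 with TWIST1 and 4076 with ZEB1, a fold of at least 64. Mlana, a melanosome protein, was at 42.1 with TWIST1 and 1533 with ZEB1, at least 24.1-fold lower. Gpnmb, a glycoprotein of melanosomes and lysosomes, was the exception in level, at 2527 with TWIST1 and 10585 with ZEB1, still 4.19-fold lower.

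**Figure D3:**
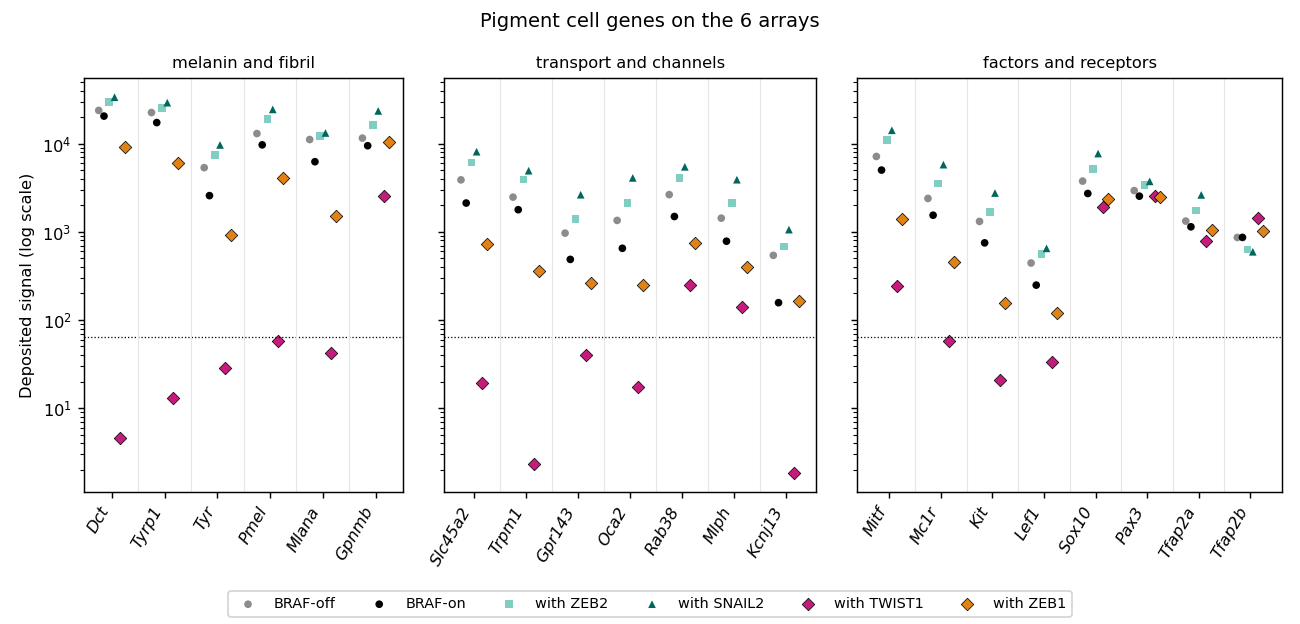
Deposited signal (log scale) of 21 pigment cell genes on each of the 6 arrays, 1 point per array, with the floor as a dotted line. With TWIST1 (pink diamonds) the melanin, fibril and most transporter genes lie under the floor, with ZEB1 (orange diamonds) most lie between the floor and the other 4 arrays, with Gpnmb and Kcnj13 just above BRAF-on, and Sox10, Pax3, Tfap2a and Tfap2b lie well above the floor on all 6 arrays.

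Genes for melanosome transport and biogenesis were lower in part. Of 19 members compared, 7 were at least 2-fold lower, none was that much higher, and the median log2 ratio was -0.40. Slc45a2, a melanosome transporter, was at 19.1 with TWIST1 and 728 with ZEB1, at least 11.4-fold lower. The channel gene Trpm1 was at 2.33 with TWIST1 and 357 with ZEB1, at least 5.6-fold lower or -0.80 in log2 over all probe sets, and the melanosome receptor gene Gpr143 at 40.4 with TWIST1 and 261 with ZEB1, at least 4.09-fold. Oca2, which encodes a melanosome anion channel, was at 17.5 with TWIST1 and 252 with ZEB1, at least 3.95-fold lower. The Rab38 gene, whose GTPase directs melanin enzymes to melanosomes, was above the floor on both arrays, at 249 with TWIST1 and 757 with ZEB1. Mlph, a linker of melanosomes to myosin, was likewise measured on both, at 139 with TWIST1 and 402 with ZEB1. Kcnj13 was at 1.83 with TWIST1 and 166 with ZEB1. The general trafficking genes stayed closer: Myo5a, the myosin that carries melanosomes, had a log2 ratio of 0.02, Rab27a one of -0.64 and Hps1 one of -0.72.

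Among lineage factors and receptors, 3 of 12 members compared passed 2-fold on the lower side and 0 on the higher, around a median of -0.60. Mitf, the master regulator of the pigment programme, was at 245 with TWIST1 and 1410.3 with ZEB1, against 7191 in BRAF-off, 5036 in BRAF-on, 11060.3 with ZEB2 and 14255 with SNAIL2. It was lowest on these 2 arrays, and 5.76-fold lower with TWIST1 than with ZEB1; its second probe set was under the floor on both, which makes the ratio -0.61 with the median of all probe sets. Mc1r, the melanocortin receptor, was at 57 with TWIST1 and 456 with ZEB1, at least 7.16-fold lower. Kit, the stem cell factor receptor, was at 20.8 with TWIST1 and 154 with ZEB1, at least 2.42-fold lower. The second Kit probe set was under the floor on both arrays. Lef1, a nuclear partner of beta-catenin, was at 33.5 with TWIST1 and 120.2 with ZEB1, a log2 bound of -0.92. The neural crest factors upstream of Mitf were within 2-fold. Pax3 was at 2589 with TWIST1 and 2514 with ZEB1, Sox10 at 1941 with TWIST1 and 2375 with ZEB1 and Tfap2a at 797 with TWIST1 and 1062 with ZEB1, with log2 ratios of 0.04, -0.29 and -0.41. Erbb3, a neuregulin receptor, had a ratio of -0.39 and Met, the HGF receptor, one of -0.09. On the TWIST1 array, then, the defining pigment cell markers Dct, Tyrp1, Tyr, Pmel and Mlana were under the floor while Sox10 and Pax3 were well above it. In bulk RNA, fewer cells of a type and less RNA per cell cannot be told apart. Over the 3 pigment lists together, 16 of the 37 genes compared were at least 2-fold lower and 28 were lowest of the 6 arrays with TWIST1. Of the 37, 15 were under the floor with TWIST1, and these entered the comparison through the ZEB1 array alone. Irf4 and Ednrb, under the floor on both arrays, were not compared.

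The promoters of these genes are shown because several share the element through which MITF is known to act. The sequence CATGTG, the core of the M-box, was searched on both strands of the 250 bases before the first listed start of each gene in RefSeq's promoters of GRCm38.p6. It was found in 7 of the 11 pigment genes at least 2-fold lower that had a promoter there, against 7.09% of the promoters of all genes compared and 12.2% of all promoters. CACCTG, an E-box that ZEB factors are known to bind, was found in 0 of the 11, against 14.6% of genes compared. With only 11 promoters this 0 is near that share and is not read as a difference. These are matches of letters, not sites of binding. In the sequences, 250 bases each from 5′ to 3′ on the gene's strand and ending at the base before the start, capitals mark CATGTG or its reverse complement. The Dct promoter is chr14:118052247-118052496, minus strand, that of Tyrp1 chr4:80833963-80834212, plus strand, that of Tyr chr7:87493513-87493762, minus strand, that of Mc1r chr8:123406832-123407081, plus strand and that of Trpm1 chr7:64153585-64153834, plus strand.
Dct: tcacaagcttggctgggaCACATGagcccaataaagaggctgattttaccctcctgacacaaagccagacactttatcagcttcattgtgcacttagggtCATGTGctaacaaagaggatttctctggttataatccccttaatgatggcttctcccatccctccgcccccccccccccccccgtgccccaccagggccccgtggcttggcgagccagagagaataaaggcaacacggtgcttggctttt
Tyrp1: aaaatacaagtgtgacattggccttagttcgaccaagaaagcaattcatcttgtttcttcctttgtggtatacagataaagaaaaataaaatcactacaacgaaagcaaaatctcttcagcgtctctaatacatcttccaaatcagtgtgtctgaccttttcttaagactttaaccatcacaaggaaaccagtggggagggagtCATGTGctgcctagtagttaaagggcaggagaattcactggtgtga
Tyr: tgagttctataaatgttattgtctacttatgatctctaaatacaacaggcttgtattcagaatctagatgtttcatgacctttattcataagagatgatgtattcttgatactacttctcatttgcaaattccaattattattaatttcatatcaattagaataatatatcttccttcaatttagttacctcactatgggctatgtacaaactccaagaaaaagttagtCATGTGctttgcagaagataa
Mc1r: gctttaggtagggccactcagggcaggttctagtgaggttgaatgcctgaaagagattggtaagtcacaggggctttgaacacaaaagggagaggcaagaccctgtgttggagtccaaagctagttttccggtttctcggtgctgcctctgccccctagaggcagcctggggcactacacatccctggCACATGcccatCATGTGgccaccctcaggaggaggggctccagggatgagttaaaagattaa
Trpm1: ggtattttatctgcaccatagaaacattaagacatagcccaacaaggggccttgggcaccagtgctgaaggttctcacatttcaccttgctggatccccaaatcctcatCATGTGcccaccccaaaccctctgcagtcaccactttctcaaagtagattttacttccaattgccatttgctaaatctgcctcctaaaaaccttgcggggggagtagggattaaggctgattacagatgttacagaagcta

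The match begins 21 bases before the start in Tyr, 46 in Tyrp1 and 141 in Trpm1. Dct has matches at 232 and 150 bases and Mc1r at 62 and 51. No match lies in this window of Gpnmb or of the first listed start of Mitf, which has 3 listed starts.

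Smooth muscle contractile genes held the largest ratio on the higher side. Of 15 members compared, 4 were at least 2-fold higher with TWIST1, none was that much lower, and the median log2 ratio was 0.55. The members not compared, Myh11, Myocd and Synpo2, were under the floor on all 6 arrays. Of the 15, 11 were highest of all 6 arrays with TWIST1 and 5 lowest with ZEB1. Tagln, the actin-binding protein transgelin, was at 6564 with TWIST1 and 278 with ZEB1, against 2441 in BRAF-off, 1596 in BRAF-on, 897 with ZEB2 and 958 with SNAIL2. The TWIST1 value was above and the ZEB1 value below every other array, and the fold between them was 23.6. Acta2, smooth muscle actin, was at 18263 with TWIST1 and 2017 with ZEB1, against 5701 in BRAF-off, 5236 in BRAF-on, 3909 with ZEB2 and 5471 with SNAIL2. Here too both arrays lay outside the range of the other 4, with a fold of 9.05, or 0.51 in log2 over all probe sets; this probe set can match several transcripts, and the gene's other probe sets were at 90.6 with TWIST1 at most. Cnn1, calponin, was at 779 with TWIST1 and 13.1 with ZEB1, against 102 in BRAF-off, 126 in BRAF-on, 18 with ZEB2 and 69.8 with SNAIL2, which gives at least 12.2-fold. Actg2, enteric smooth muscle actin, was at 449 with TWIST1 and 83.9 with ZEB1, 5.35-fold higher. The other contractile genes compared stayed within 2-fold. Lmod1, which nucleates actin filaments, was at 0.86 and Cald1, caldesmon, at 0.72. Tpm2 and the intermediate filament gene Des were at -0.80 and -0.74.

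**Figure D4:**
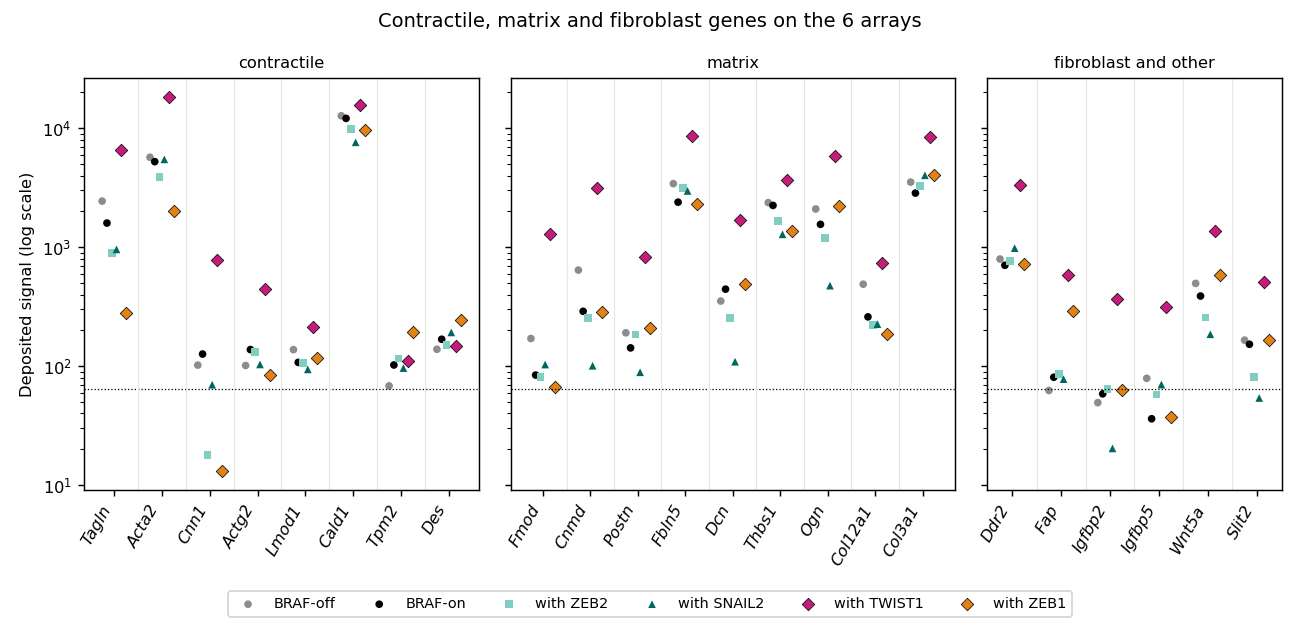
Deposited signal (log scale) of contractile, matrix and fibroblast genes on each of the 6 arrays, 1 point per array, with the floor as a dotted line. With TWIST1 (pink diamonds) all genes shown but Tpm2 and Des were highest of the 6 arrays; with ZEB1 (orange diamonds) Tagln, Acta2, Cnn1 and Actg2 were the lowest of the 6, and so were Fmod, Fbln5 and Col12a1.

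Genes for matrix proteoglycans and glycoproteins were higher in part. Of 17 compared, 8 were at least 2-fold higher, none was that much lower, 10 were highest of the 6 arrays with TWIST1, and the median was 0.40. Fmod, fibromodulin, which binds collagen fibrils, was at 1284 with TWIST1 and 67 with ZEB1, against 171 in BRAF-off, 84.1 in BRAF-on, 80.7 with ZEB2 and 103 with SNAIL2. The fold was 19.2, and the gene's 5 other probe sets gave log2 bounds between 2.04 and 3.08. Cnmd, chondromodulin, a cartilage protein that inhibits vessel growth, was at 3145 with TWIST1 and 286 with ZEB1, against 642 in BRAF-off, 289 in BRAF-on, 253 with ZEB2 and 101 with SNAIL2, 11-fold higher. For both genes the TWIST1 array was the highest of the 6, BRAF-off came next, and the ZEB1 array was close to BRAF-on. Postn, periostin, was at 828 with TWIST1 and 208 with ZEB1, a log2 ratio of 1.99. Fbln5, an elastic fibre protein, was at 8686 with TWIST1 and 2297 with ZEB1 (1.92), and Dcn, decorin, at 1679 with TWIST1 and 494 with ZEB1 (1.77). Thbs1, thrombospondin, had a ratio of 1.44, Ogn, osteoglycin, one of 1.40 and Omd a bound of 1.24.

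Collagens went the same way in smaller steps, with 5 of 20 at least 2-fold higher, none that much lower and a median of 0.30. Col12a1, a collagen that associates with fibrils, was at 738 with TWIST1 and 185 with ZEB1 (3.99-fold), and a dimmer probe set had a ratio of 0.59. The remaining Col12a1 probe sets were under the floor on both arrays. Col3a1, a main fibril collagen, was at 8396 with TWIST1 and 4044 with ZEB1 (1.05). Col11a1 (1.36), Col6a2 (1.13, or 0.54 over all probe sets) and Col5a2 (1.11) were the others past 2-fold, and Col1a1 was within it at 0.58. Fibroblast markers, a list that shares the collagen genes and Dcn, passed 2-fold on the higher side in 4 of 12 cases and on the lower in 0, around a median of 0.59. Ddr2, a collagen receptor kinase, was at 3307 with TWIST1 and 721 with ZEB1, and its second probe set also passed 2-fold. Fap, a surface protease of activated fibroblasts, was at 582 with TWIST1 and 288 with ZEB1, against 62.4 to 86.1 on the other 4 arrays, so that it was raised on both. Pdgfrb was at 4959.9 with TWIST1 and 3997 with ZEB1 and Pdgfra at 105 with TWIST1 and 136 with ZEB1. Of the 16 fibroblast markers, 12 reached the floor with TWIST1 and 11 with ZEB1, and their summed signal was 44008 and 34123, against 21992 to 30069.9 on the other 4 arrays. The defining markers Lum, Dpt, Prrx1 and Cd34 were under the floor on all 6 arrays. Whether cells of another type contributed was not tested.

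YAP targets, genes that respond to cell spreading and tension, included 3 of 17 compared genes past 2-fold on the higher side (median 0.11). These were Ankrd1, at 3228 with TWIST1 and 1165 with ZEB1, and the matricellular genes Ccn2, at 2573 with TWIST1 and 1078 with ZEB1, and Ccn1, at 12819 with TWIST1 and 5496 with ZEB1. All 3 were lower with ZEB1 than on any other array, while with TWIST1 they lay below BRAF-on. Integrin and laminin chains went both ways, with 2 of 21 higher and 2 lower: Itgb8 (1.48) and Itga4 (1.38) against Itgb7 (-1.35) and Itgb3 (-1.11, or -0.16 over all probe sets). No cadherin, junction or keratinocyte gene was 2-fold apart. The adhesion list had 10 of 25 members at the floor on either array, with Jup, plakoglobin, lowest at -0.88, and Cdh1, the E-cadherin that ZEB1 is known to repress, was under the floor on both.

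Cell division genes were lower with ZEB1. Of 34 mitosis genes, 20 were at least 2-fold higher with TWIST1 than with ZEB1 and all 34 were above 0, with a median log2 ratio of 1.08. Of 33 DNA replication and S phase genes, 12 were at least 2-fold higher and 32 above 0, with a median of 0.86. On the ZEB1 array 31 of the mitosis genes and 30 of the S phase genes were lowest of all 6 arrays. With TWIST1 none of the mitosis genes and 1 S phase gene was. The summed signal of the S phase list was nevertheless lower with TWIST1 than on the other 4 arrays. It was 102229 with TWIST1 and 59622 with ZEB1, against 123919 to 134504. For the mitosis list it was 122093 with TWIST1 and 59266 with ZEB1, against 106930 to 133136. Mki67, the proliferation marker Ki-67, was at 5422 with TWIST1 and 1357 with ZEB1, against 7677 in BRAF-off, 7199 in BRAF-on, 7911 with ZEB2 and 2107 with SNAIL2. Cenpe, a kinetochore motor, was at 2009 with TWIST1 and 374 with ZEB1, 5.37-fold higher, against 1559 in BRAF-off, 1750.0 in BRAF-on, 1332 with ZEB2 and 172 with SNAIL2. Cenpf, another kinetochore protein, had a ratio of 1.93 (0.79 with the median of all probe sets) and was at 287 with SNAIL2. Mki67, Cenpe and Cenpf were therefore low on the SNAIL2 array too, whereas Aurkb, the kinase of chromosome segregation, was at 2089 there. Hmmr, a spindle protein, was at 2339 with TWIST1 and 622 with ZEB1 (1.91), and 2 of its other 4 probe sets had ratios of 1.86 and 2.03. Ttk, a kinase of the spindle checkpoint, was at 1136 with TWIST1 and 364 with ZEB1 (1.64). Aurkb was at 1569 with TWIST1 and 690.2 with ZEB1 (1.19), and Top2a, topoisomerase II, at 7745 with TWIST1 and 3573 with ZEB1 (1.12, or 0.89 over all probe sets). On the replication side, Pola1, a DNA polymerase subunit, was at 1.94, the origin licensing gene Cdc6 at 859 with TWIST1 and 287 with ZEB1 (1.58), and the cyclin gene Ccne2 at 668 with TWIST1 and 240.2 with ZEB1 (1.48). The helicase gene Mcm2 was at 2819 with TWIST1 and 1120.2 with ZEB1 (1.33) and Rrm2, a subunit of ribonucleotide reductase, at 1.30. A second Pola1 probe set was under the floor on both arrays, and the gene's ratio is -0.64 with the median of all probe sets.

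CCAAT, an element known in many cell cycle promoters, was found in the 250 bases before the start of 21 of 28 mitosis genes with a promoter, and TTTGAA, the core of the CHR element of late cell cycle genes, in 9. The shares over all genes compared were 36.8% and 10.1%. The Mki67 promoter (chr7:135716380-135716629, minus strand) is shown as an example, with TTTGAA in capitals.
Mki67: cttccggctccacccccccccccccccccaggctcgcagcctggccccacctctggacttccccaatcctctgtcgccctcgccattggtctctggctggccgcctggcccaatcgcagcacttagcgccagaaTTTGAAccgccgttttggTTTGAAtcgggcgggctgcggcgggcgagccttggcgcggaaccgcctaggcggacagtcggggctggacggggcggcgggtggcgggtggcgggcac

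Inhibitors of the cell cycle were higher with ZEB1 in part. In the list of CDK inhibitors and RB family genes 2 of 10 were at least 2-fold lower with TWIST1, none was that much higher, and the median was 0.02. Cdkn1a, the inhibitor p21, was at 598 with TWIST1 and 2287 with ZEB1, against 653 in BRAF-off, 921 in BRAF-on, 806 with ZEB2 and 1100.2 with SNAIL2, with a log2 ratio of -1.93 and one of -1.95 on its second probe set. Cdkn2a, which encodes p16 and p19ARF, was at 223 with TWIST1 and 515 with ZEB1, against 281 in BRAF-off, 354 in BRAF-on, 269 with ZEB2 and 213 with SNAIL2. Cdkn2b, p15, was at 948 with TWIST1 and 1457 with ZEB1, within 2-fold, and Cdkn1c, p57, at 208 with TWIST1 and 231 with ZEB1. The inhibitor genes Cdkn1b, Cdkn2c and Cdkn2d went the other way, at 0.28, 0.20 and 0.19. Of the 10 members of the list 5 were above 0 and 5 below. Rbl1, the pocket protein p107, which is itself a cell cycle gene, was at 0.92. Of 14 p53 targets 1 was past 2-fold, Trp53inp1 at -1.03, or -0.96 after centring, and 9 were below 0, with a median of -0.39. Of the BCL2 family 1 of 11 was past 2-fold, the cell death inducer gene Bcl2l11 (BIM) at 778 with TWIST1 and 1589.5 with ZEB1 (-1.03, or -0.95 after centring), with a median of -0.30.

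**Figure D5:**
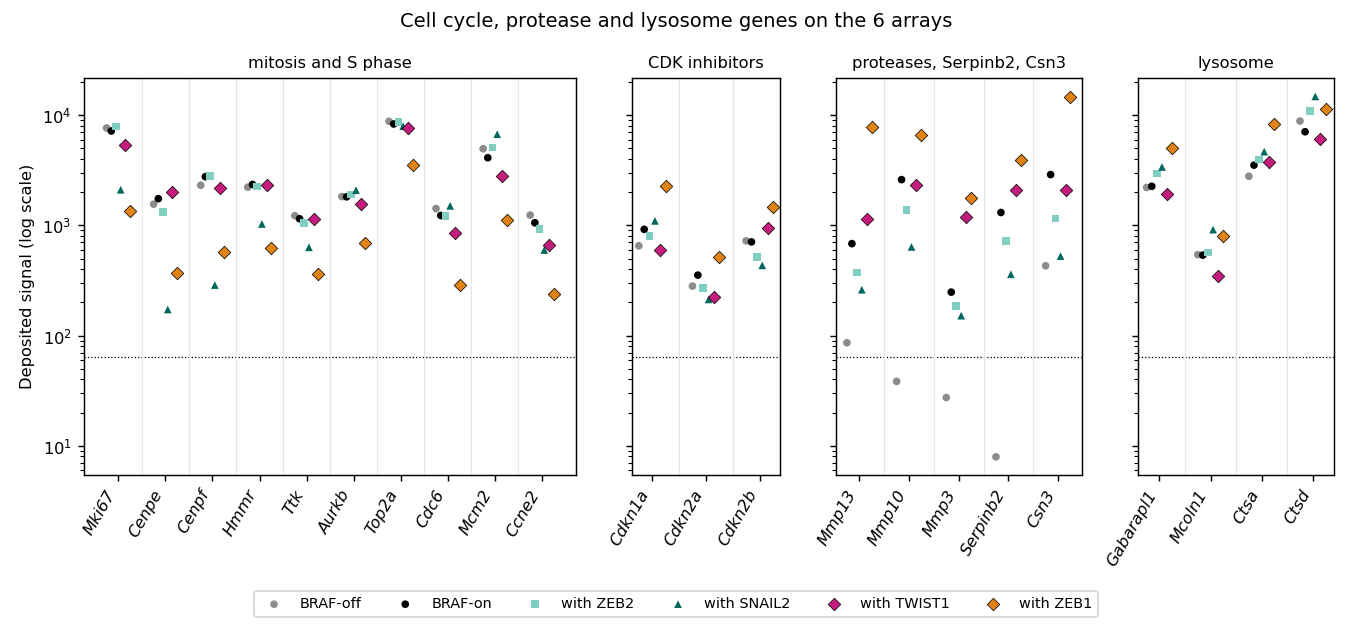
Deposited signal (log scale) of cell cycle genes, CDK inhibitors, secreted proteases with Serpinb2 and Csn3, and lysosome genes on each of the 6 arrays, 1 point per array, with the floor as a dotted line. With ZEB1 (orange diamonds) the cell cycle genes shown were lowest of the 6 arrays except Cenpe and Cenpf, which were lower with SNAIL2, and the inhibitors and proteases shown were highest.

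All 11 metalloproteinase genes compared were below 0, 2 of them at least 2-fold lower with TWIST1, with a median of -0.56. Of the 11, 9 were highest of the 6 arrays with ZEB1. Mmp9 and Mmp24 were under the floor with TWIST1, so they entered through the ZEB1 array alone and could only lie below 0. Close to the floor of 63.7 were Mmp17, at 67.7 with TWIST1 and 76.8 with ZEB1, and Mmp23, at 64.5 with TWIST1 and 66 with ZEB1. Mmp13, a collagenase, was at 1137 with TWIST1 and 7843 with ZEB1, against 86.1 in BRAF-off, 683 in BRAF-on, 373 with ZEB2 and 261 with SNAIL2, 6.9-fold apart. Mmp10, a stromelysin, was at 2348 with TWIST1 and 6592 with ZEB1, against 38.4 in BRAF-off, 2606 in BRAF-on, 1382 with ZEB2 and 637 with SNAIL2, 2.81-fold apart. Both arrays were well above BRAF-off for each. Mmp3, another stromelysin, was at 1192 with TWIST1 and 1756 with ZEB1, a ratio of -0.56, and Mmp1a, a collagenase, at 2313 with TWIST1 and 2628 with ZEB1 (-0.18). Mmp2, a gelatinase, was the one that both arrays had below the other 4, at 235 with TWIST1 and 405 with ZEB1 against 744 to 2329.5. Of 8 protease inhibitor and plasminogen genes none was past 2-fold and 7 were below 0 (median -0.43), with the inhibitor gene Serpinb2 at 2104 with TWIST1 and 3948 with ZEB1 (-0.91) and Timp1 at -0.49. In the ADAM list, Adam12 was lower with TWIST1 (-1.45) and Adamts5, an aggrecanase, higher (1.25), with a median of -0.05 over 11 genes.

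The promoters of the 3 stromelysin and collagenase genes Mmp13, Mmp10 and Mmp3 are shown because each holds TGAGTCA, the sequence that AP-1 factors are known to bind, close to the start. The motif was chosen after the values were seen. Of the 7 metalloproteinase genes with a promoter 4 held it on either strand within 250 bases, against 3.14% of all genes compared and 4.43% of all promoters. Capitals mark TGAGTCA or its reverse complement, which begins 35 bases before the start in Mmp13 (chr9:7272264-7272513, plus strand), 63 in Mmp10 (chr9:7502092-7502341, plus strand) and 46 in Mmp3 (chr9:7445572-7445821, plus strand).
Mmp13: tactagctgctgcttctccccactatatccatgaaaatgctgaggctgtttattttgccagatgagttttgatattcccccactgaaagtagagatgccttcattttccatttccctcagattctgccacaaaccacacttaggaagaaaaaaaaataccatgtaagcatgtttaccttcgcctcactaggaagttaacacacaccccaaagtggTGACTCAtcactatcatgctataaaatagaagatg
Mmp10: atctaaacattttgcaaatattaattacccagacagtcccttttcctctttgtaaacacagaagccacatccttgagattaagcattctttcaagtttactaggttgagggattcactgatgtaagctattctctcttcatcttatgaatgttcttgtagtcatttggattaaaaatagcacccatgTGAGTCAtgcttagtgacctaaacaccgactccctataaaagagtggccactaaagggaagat
Mmp3: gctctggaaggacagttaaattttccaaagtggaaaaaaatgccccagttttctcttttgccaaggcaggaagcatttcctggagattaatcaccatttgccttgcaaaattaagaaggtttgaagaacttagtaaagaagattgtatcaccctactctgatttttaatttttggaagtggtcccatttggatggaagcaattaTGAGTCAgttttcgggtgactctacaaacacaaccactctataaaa

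Of 18 AP-1 and immediate early factor genes, 3 were at least 2-fold lower with TWIST1, 14 were below 0 and the median was -0.66; no AP-1 subunit gene was past 2-fold. Fosl1, the AP-1 subunit FRA1, was at 587 with TWIST1 and 1142 with ZEB1 (-0.96), Junb at 527 with TWIST1 and 925 with ZEB1 (-0.81) and Jun at 848 with TWIST1 and 1425 with ZEB1 (-0.75), while Fosl2 was at -0.06 and Fos at 0.38. Past 2-fold were Nr4a3, an orphan nuclear receptor, at 42.3 with TWIST1 and 271 with ZEB1 (bound -2.09), its relative Nr4a2 (bound -1.05, or -0.77 over all probe sets, or -0.97 after centring) and Egr3 (-1.07, or -0.95 over all probe sets, or -0.99 after centring). For Nr4a3 both arrays were below the other 4, which ranged from 604 to 3984. Feedback inhibitors and outputs of the ERK pathway, into which BRAF feeds, had 2 of 21 members lower, none higher, and a median of -0.53. Ier3, an early response gene, was at 1807 with TWIST1 and 5037 with ZEB1 (-1.48) and the cytokine gene Lif at 288 with TWIST1 and 761 with ZEB1 (-1.40). The ERK phosphatase genes Dusp5, Dusp4 and Dusp6 stayed within 2-fold at -0.91, -0.81 and -0.76. On the TWIST1 array 10 of the 21 were lowest of the 6 arrays, and on the ZEB1 array 9 were highest. The kinase and RAS genes themselves held 1 member past 2-fold, Braf, and a median of -0.02.

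Secreted signals split. Among chemokines and cytokines 2 of 21 were at least 2-fold higher with TWIST1 and 2 lower, with a median of -0.12. Il6, interleukin 6, was at 561 with TWIST1 and 105 with ZEB1, against 203 in BRAF-off, 259.9 in BRAF-on, 103 with ZEB2 and 50.6 with SNAIL2. Ccl7, a chemokine for monocytes, was at 278 with TWIST1 and 63.2 with ZEB1, at least 4.37-fold higher. The alarmin gene Il33 was the reverse, at 252 with TWIST1 and 898 with ZEB1 (-1.83), as was Lif. Cxcl10 (0.98) and Cx3cl1 (-0.96) lay just inside 2-fold on opposite sides.

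Interferon response and antigen presentation genes were close on the 2 arrays. Of 35 interferon response genes 1 was past 2-fold, Bst2 (tetherin) at 3132 with TWIST1 and 6613 with ZEB1, and the median was -0.14. Of 15 MHC class I pathway genes none was past 2-fold, with a median of -0.12. The interferon list was high on both arrays: 10 interferon genes were highest of the 6 arrays with TWIST1 and 24 with ZEB1. The summed signal of the interferon list was 184018 and 203466, against 68944 to 117314 elsewhere. The immunoproteasome gene Psmb8, for example, was at 3422 with TWIST1 and 2642 with ZEB1 against 563 to 1280.5, and the peptide transporter gene Tap1 at 3239 with TWIST1 and 2565 with ZEB1 against 924 to 1309.7. Of 17 macrophage and leukocyte markers, 6 reached the floor with TWIST1 and 7 with ZEB1. All 7 that could be compared were below 0 and 6 were highest of the 6 arrays with ZEB1. Cd68, a lysosomal protein of macrophages, was at 134 with TWIST1 and 466 with ZEB1 (-1.80), and Csf1r (-0.60), Laptm5 (bound -0.64), Cd74 (-0.33), Lyz1 (-0.32), Fcer1g (-0.30) and Lyz2 (-0.15) were within 2-fold. The other 10, among them Ptprc, Cd14, Itgam, Adgre1, Tyrobp and Aif1, were under the floor on both. The list's summed signal was 1926 and 2695, against 1349 to 1712 on the other 4 arrays, and the part of such cells in the results was not tested.

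All 25 lysosome and autophagy genes compared were below 0, 3 of them at least 2-fold lower with TWIST1, with a median of -0.61. On the ZEB1 array 14 were highest of the 6, and on the TWIST1 array 13 were lowest. Gabarapl1, a protein of the autophagosome membrane, was at 1934 with TWIST1 and 5081 with ZEB1 (-1.39), with a ratio of -1.50 on its second probe set. Ctsa, the lysosomal protease cathepsin A, was at 3789 with TWIST1 and 8332 with ZEB1 (-1.14, or -0.88 over all probe sets), and Mcoln1, a calcium channel of lysosomes, at 348 with TWIST1 and 794 with ZEB1 (-1.19, or -0.81 over all probe sets). Ctsd (-0.91), Npc1 (-0.89) and Ctsb (-0.80) stayed within 2-fold. Glycolysis and hypoxia genes had 20 of 22 below 0, with a median of -0.34 and 1 past 2-fold, Egln3, an oxygen-sensing hydroxylase, at -1.18. Among lipid carriers, Apoe, apolipoprotein E, was at 1514 with TWIST1 and 3498 with ZEB1 (-1.21), both above the 368 to 707 of the other 4 arrays, and Apoc1 at 122 with TWIST1 and 459 with ZEB1 (-1.91). The fatty acid binding protein genes Fabp4 and Fabp5 lay on opposite sides at -0.83 and 0.94. Cholesterol and fatty acid synthesis genes had none of 29 past 2-fold and a median of 0.11.

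Signalling genes differed one by one rather than as lists. Of the insulin-like growth factor list 3 of 14 were at least 2-fold higher, the binding protein genes Igfbp2, at 367 with TWIST1 and 63 with ZEB1 (at least 5.77-fold), and Igfbp5, at 317 with TWIST1 and 37.5 with ZEB1 (at least 4.97-fold, or 0.92 in log2 over all probe sets), and the RNA-binding protein gene Igf2bp1 (1.48). In the WNT list the ligand genes lay on both sides, Wnt5a at 1358 with TWIST1 and 582 with ZEB1 (1.22) and Wnt7b at -1.41, or -0.82 over all probe sets. In the Notch list it was the ligand gene Jag1 (1.15, or 0.88 over all probe sets) against the receptor gene Notch4 (-1.39). The WNT list had a median of 0.10 and the Notch list one of -0.11. Axon guidance genes had 3 of 30 higher, Sema3c (1.89), Slit2 (1.60) and the netrin receptor gene Unc5c (1.14, or 0.98 over all probe sets), and 1 lower, the semaphorin receptor gene Plxnd1 at 593 with TWIST1 and 1915 with ZEB1 (-1.69), with a median of -0.10. Growth factors included Fgf18 on the higher side (bound 1.71) and Fgf1 on the lower (-1.04, or -0.96 after centring), with a median of 0.20. The TGF-beta and BMP list had none higher and Tgfb1 alone lower (-1.23, or -0.62 over all probe sets), with a median of 0.14. In the Schwann and glial list the myelin protein gene Pmp22 was at 1309.8 with TWIST1 and 409 with ZEB1 (1.68) and the median was -0.02.

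None of 32 ribosomal protein genes, 41 respiratory chain genes, 8 histone genes or 8 EMT factor genes was 2-fold apart, with medians of -0.14, -0.06, 0.12 and 0.22. Within the last, Twist2, the paralog of Twist1, was at 337 with TWIST1 and 176 with ZEB1 (0.94). The stress response list had 1 of 29 lower, Ddit4, an inhibitor of mTOR signalling, at -1.12 (list median 0.04). The NRF2 list had 2 of 19 lower, the glutathione transferase gene Gsta2 at 78.5 with TWIST1 and 385 with ZEB1 and Osgin1 at -1.11 (median -0.06). Of markers of other cell types, 5 endothelial, 3 neuronal and 7 keratinocyte genes could be compared, with medians of -0.59, 0.04 and -0.36 and 4, 1 and 5 of them below 0. Of these only Eng (2-fold lower, or -0.92 in log2 after centring), Nefm (-2.34) and Map2 (1.22, or 0.63 over all probe sets) were past 2-fold. Among actin monomer binders the gene of the abundant peptide beta thymosin, Tmsb4x, was at 17.3 with TWIST1 and 3014 with ZEB1, against 11080.2 in BRAF-off, 7952 in BRAF-on, 11792 with ZEB2 and 5443 with SNAIL2. It has 1 probe set here and was at least 47.3-fold lower. Mtss1 was also lower (-1.21, or -0.76 over all probe sets), and the other 13 members were within 2-fold (median -0.11).

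Several of the genes furthest apart belong to none of these lists. On the higher side were Mest, an imprinted gene for a hydrolase-like protein, at 3518 with TWIST1 and 354 with ZEB1 (9.95-fold), and Npr3, the clearance receptor for natriuretic peptides, at 1653 with TWIST1 and 234 with ZEB1 (7.08-fold, with its other 2 probe sets at log2 ratios of 1.42 and 2.07). Prkcq, protein kinase C theta, was at 734 with TWIST1 and 116 with ZEB1 and Htr1b, a serotonin receptor, at 470.5 with TWIST1 and 83.7 with ZEB1. For both Mest and Npr3 the ZEB1 array was the lowest of the 6 and the TWIST1 array the highest. Glipr1, Plxdc2, Ptchd4 and Lrtm2 had ratios of 2.69, 2.48, 2.43 and 2.41, but Plxdc2 was at 0.18 over all probe sets. Ces1g, Pcdh19, Kcnk1 and Eya4, under the floor with ZEB1, had bounds of 2.55, 2.21, 2.11 and 2.02, with Kcnk1 at 0.99 over all probe sets. On the lower side Ptgds, a prostaglandin D synthase, was at 319 with TWIST1 and 3272 with ZEB1, against 9087 in BRAF-off, 6151 in BRAF-on, 14026 with ZEB2 and 17024 with SNAIL2, and Mgll, a lipase, was at 71.3 with TWIST1 and 631 with ZEB1, against 2962 in BRAF-off, 1435 in BRAF-on, 5484 with ZEB2 and 10176 with SNAIL2. Like the pigment genes, both were below the other 4 arrays on both sides and lowest with TWIST1, by 10.3-fold and 8.85-fold. Cd24a, a surface sialoprotein, was at 96.5 with TWIST1 and 936 with ZEB1 (9.7-fold), with both other probe sets past 2-fold as well. Sned1, a matrix protein gene, was at 282 with TWIST1 and 2475 with ZEB1, against 252 to 382 elsewhere, and Csn3, a milk casein, at 2094 with TWIST1 and 14634 with ZEB1, against 430.1 in BRAF-off, 2894 in BRAF-on, 1152 with ZEB2 and 526 with SNAIL2. Sned1 and Csn3 were raised on the ZEB1 array above all others, and so were Disp2 (-2.61), Mustn1 (-2.78), Cd300lb (-2.81) and Prxl2a (-2.99). The sialyltransferase gene St6gal1 (-2.38) was lowest with TWIST1.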

How the data were processed

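Total RNA of 6 melan-a cultures was amplified for Affymetrix 3' expression arrays, per the labels' protocols, with 1 array a group. The values as deposited are linear probe set intensities; the submitters' processing notes name MAS5 and Affymetrix Expression Console 1.1. The trimmed mean (2% off each end) came to 500 on all 6 arrays, so they were already scaled to one level and were not normalized again.

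Of 45037 probe sets without controls, 34945 carried 1 gene symbol in the platform annotation, 932 several and 9160 none; only the first were used. Symbols were updated by Entrez number in a RefSeq table of GRCm38.p6, which held 34741. A gene (18193 in all) was read from its brightest probe set by mean log2 signal across all arrays. Signals under 63.7, the median of all values, were raised to it, genes with 1 of the 2 arrays at or above it were compared, and log2 ratios of at least 1 or at most -1 were counted by size. There were no tests.

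The 46 gene lists (963 of 1050 entries had a probe set) and the pair of arrays were chosen with earlier results of these data known. Named genes are the 15 largest ratios in each direction measured on both arrays, the 8 largest bounds, without clone names or genes with an opposing probe set past 1.5-fold, list members past 2-fold (up to 5 a direction, or up to 2 by size where none was), further members of short lists, and the introduced factors with Braf. Members named within 2-fold for their role, Psmb8, Tap1, Cdh1, markers under the floor and the genes of the 4 groups in the closing section fall outside this rule and were chosen after their values were seen. Promoters are those of RefSeq's table (27025 genes, first listed start, 250 bases before it); TGAGTCA and a CArG box search were added after values were seen, and the CArG box matched 3 of 13 smooth muscle gene promoters, against 1.24% of genes compared. CATATG and TTTGGCGC were also searched, with 1.42% and 0.91% of genes compared holding them. CATATG was in 4 of 313 promoters of higher genes, 8 of 407 of lower genes and 0 of the 11 pigment promoters. TTTGGCGC was in 6 of 313 and 2 of 407, and in 3 of 28 S phase and 0 of 28 mitosis promoters. A further motif, not printed here, was in 13 of 26 interferon response promoters, against 2.61% of genes compared. It was in 15 of 313 promoters of higher and 14 of 407 of lower genes. The counting was tested on simulated arrays. Counts, list medians and 145 genes were recomputed with quantile normalization, with centring, with a higher floor (60th or 75th percentile), with none, with a pseudocount in its place, with a gene's median probe set, without cross-matching probe sets, and at 3-fold. Python 3.11.15, numpy 2.4.6, pandas 2.3.3 and matplotlib 3.10.9 were used.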

Additional observations from a re-analysis of the deposited data

How the results depend on the processing

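The number of genes counted depended most on the treatment of dim values. With the floor at the 75th percentile 172 genes were higher and 147 lower, without a floor 1624 and 2825, and with the floor as a pseudocount 316 were lower. Asking for 3-fold left 85 higher and 120 lower. Under the other alternatives both counts stayed within 1.5 times. Of 145 genes followed singly, 140 stayed past 2-fold the same way with quantile normalization and 139 with centring, and 110 of 136 with the median of all probe sets, where Acta2 came to 0.51, Mitf to -0.61, Cenpf to 0.79, Braf to 0.30 and Pola1 turned to -0.64, since their other probe sets are dim. A higher floor kept fewer of the 145 genes. At the 75th percentile 110 of them gave a value, with 80 still past 2-fold and 30 within it. At the 60th percentile 133 of 144 remained past 2-fold. The pseudocount left 129 of 145 past 2-fold, dropping the floor left all 145, and 71 of 145 passed 3-fold. The folds of dim named genes thus depend on the floor. Of 46 list medians 35 kept their sign under all 8 alternatives that give one. The others lay near 0. With centring the medians turned for Schwann and glial genes (0.0571), ADAM proteases (0.0262), NRF2 genes (0.0151), insulin-like growth factors (0.0298), RAS and RAF genes (0.0566) and respiratory chain genes (0.0125). With the floor at the 75th percentile they turned for Schwann genes (0.24), ADAM proteases (0.0121) and neuronal markers (-0.16), and without a floor for neuronal markers (-0.0404) and insulin-like growth factors (0.003). With the median of all probe sets they turned for Schwann genes (0.28), CDK inhibitors (-0.0888), insulin-like growth factors (0.0134) and RAS genes (0.0006). With quantile normalization cytokines (0.0033) and ribosomal proteins (0.0024) turned, and without probe sets that match several transcripts RAS genes (0.0132) and histones (-0.0748). No paired analysis was possible because each group has 1 array. Signal over background limits every gene under or near the floor, for which only a bound can be given.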

Other observations

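Among the genes furthest apart were members of 4 further groups. Their lists were written after the values were seen, so the counts describe these 2 arrays and support nothing. Genes known to be regulated by FOXO factors, which act when growth factor signalling is low, were lower with TWIST1: of 29 compared 8 were at least 2-fold lower, none was that much higher, and the median log2 ratio was -0.61. Among the 8, Gabarapl1, Bcl2l11 and Ddit4 were already given above with other lists, so this group is not separate from those. Depp1, a FOXO-induced autophagy regulator, was at 430.0 with TWIST1 and 2301 with ZEB1, and the ubiquitin ligase genes of muscle atrophy, Trim63 and Fbxo32, were at 231 with TWIST1 and 954 with ZEB1 and at 121 with TWIST1 and 382 with ZEB1. Pik3ip1, an inhibitor of PI3 kinase, was at 359 with TWIST1 and 1091 with ZEB1. For 19 of the 29 the ZEB1 array was the highest of the 6, but Trim63 was higher with SNAIL2 (1478), and Foxo1 and Foxo3 were within 2-fold (-0.53 and -0.24).

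Genes of DNA repair and of the SMC complexes that hold and condense chromosomes were lower with ZEB1. Of 24 repair genes 12 were at least 2-fold higher with TWIST1, with a median of 0.95, and 23 were lowest of the 6 arrays with ZEB1. Brca2 was at 436 with TWIST1 and 150.1 with ZEB1, Atr at 538 with TWIST1 and 192 with ZEB1 and Rif1 at 1952 with TWIST1 and 532 with ZEB1. Of 22 SMC complex genes 9 were at least 2-fold higher and all were above 0, with a median of 0.94. Smc2 was at 4453 with TWIST1 and 1175 with ZEB1 and Smc4 at 7660.4 with TWIST1 and 2598 with ZEB1, but with SNAIL2 they were low too, at 2109 and 1993, and 6 of the 22 were lowest there.

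Some genes best known from leukocytes were higher with ZEB1. The integrin gene Itgb2 was at 26.9 with TWIST1 and 327 with ZEB1, its activator gene Fermt3 at 119 with TWIST1 and 532 with ZEB1, Cd53 at 286 with TWIST1 and 1028 with ZEB1 and the factor gene Irf8 at 159 with TWIST1 and 562 with ZEB1. Of 27 such genes with a probe set 13 reached the floor on either array, 7 of them at least 2-fold lower with TWIST1 and 1, Lcp1, higher, at 245 with TWIST1 and 91 with ZEB1. Spi1, Cybb, Ncf1, Itgal and Itgax were under the floor on both.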
